A study of Mus musculus with 8 samples.

Results

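The difference between what Yap1 deletion and Ctgf deletion did to the liver transcriptome was measured gene by gene. For each gene the log2 fold change of Yap1 knockout over its controls (the Yap1 effect) was compared with that of Ctgf knockout over its own controls (the Ctgf effect). All 8 of the 8 liver libraries entered the comparison, and 13999 of the 22155 genes in the count table passed the low-count filter and were tested. Genes were also sorted by whether both knockouts lay on the same side or on opposite sides of their controls.

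The 4 groups held 2 libraries each. Yap control livers were homozygous for a floxed Yap1 allele and carried the virus AAV8-GFP, while Yap1 knockout livers carried AAV8-iCre, which removed Yap1 from hepatocytes. Ctgf control livers were homozygous for a floxed Ctgf allele, and Ctgf knockout livers came from Ctgf conditional knockouts. For the Ctgf line the labels name no virus, and the sources used here do not give its Cre driver. All mice were adults of 8 to 10 weeks on a C57BL/6 background by label. All of them drank an ethanol liquid diet (1% for 2 days, then 2% for 10 days) and were dosed with carbon tetrachloride (CCl4, 1 µl/g), a liver toxin, 2 days ahead of liver collection, so no group was uninjured. Because a virus is labelled in 1 line alone, virus, line and deleted gene cannot be told apart in the difference of the effects.

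YAP, the product of Yap1, is a transcriptional coactivator that the Hippo kinase cascade keeps out of the nucleus; it binds DNA through TEAD factors and is known to induce Ctgf, Cyr61 and Ankrd1. CTGF is a secreted matrix protein of the CCN family that acts outside the cell, on integrins and growth factors. CCl4 kills pericentral hepatocytes, and the liver answers with inflammation, activation of stellate cells into matrix-producing cells, and regrowth.

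Levels are in CPM, the read count divided by the scaled size of its library. The libraries held 26904021 to 33488609 counts. Hepatocyte transcripts were present in each of them, for example Alb at 29931 to 69274 CPM. In the library labelled Ctgf knockout 2, Ctgf stood at 49.2 CPM, above both of its controls (28.8 and 32.1 CPM), which goes against the label. Exocrine pancreas transcripts summed to 18148.5 CPM in Yap control 2 and to between 3.57 and 9.91 CPM in the other libraries. Results that rest on these libraries are therefore also given without both of them, which leaves 1 Yap control and 1 Ctgf knockout that are assumed to vary like the other groups.

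No gene passed the test of the difference between the effects over all genes. With edgeR's quasi-likelihood test and Benjamini-Hochberg adjustment, 0 of 13999 genes (0%) had an adjusted p under 0.05 in either direction. At an unadjusted p under 0.05 the Yap1 effect was above the Ctgf effect in 655 genes (4.68%) and below it in 587 (4.19%), together 8.87%. DESeq2 called 85 genes higher (0.607%) and 57 lower (0.407%). Without Yap control 2 and Ctgf knockout 2, edgeR called 107 higher (0.75%) and 36 lower (0.252%), and 51 of these 143 genes were also among DESeq2's 142. Without Yap control 1 it called 1133 higher and 959 lower, a count that sets both Yap1 knockouts against the library with pancreas transcripts alone, and without Yap control 2 it called 0. The count therefore depended on which Yap control was used, and the replicate correlation of log2 CPM was lowest in that group (Pearson r 0.933, against 0.971 to 0.993 in the others).

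The 2 effects differed in their median size over the genes tested. The median absolute log2 fold change was 0.35 for Yap1 and 0.16 for Ctgf, beside a median SE of 0.31 for each. The fit gave each gene 1 spread over all groups, so these SEs do not show the spread within each line. Spread between replicates raises a median of absolute values, and both doubted libraries are in these values. By itself, the Yap1 effect passed the test in 4 genes (0.0286%): Adm, Cd28 and Ndufa4l2 rose (3 genes, 0.0214%) and Akr1c20 fell (1 gene, 0.00714%). Leaving out either Yap1 knockout or either Ctgf knockout left 0 of these calls, and leaving out both doubted libraries gave 530 higher and 408 lower. At an unadjusted p under 0.05 the Yap1 effect was higher in 929 genes (6.64%) and lower in 999 (7.14%). The Ctgf effect passed in 0 genes with edgeR, with 277 at an unadjusted p under 0.05 (1.98%), and in 4 with DESeq2 (1 higher and 3 lower). Among the 655 genes with a higher Yap1 effect, the effects had opposite signs in 571 (87.2%), against 8304 of all 13999 genes (59.3%), a sign pattern that selection on the difference favours. The Yap1 effect was the larger in size in 539 of these 655 genes (82.3%) and in 544 of the 587 lower ones (92.7%), against 71.7% of all genes. Across all genes tested the 2 effects had a Pearson r of -0.08, and of 0.06 without Yap control 2 and Ctgf knockout 2; genes are not independent, and the lines share no library.

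**Figure D1:**
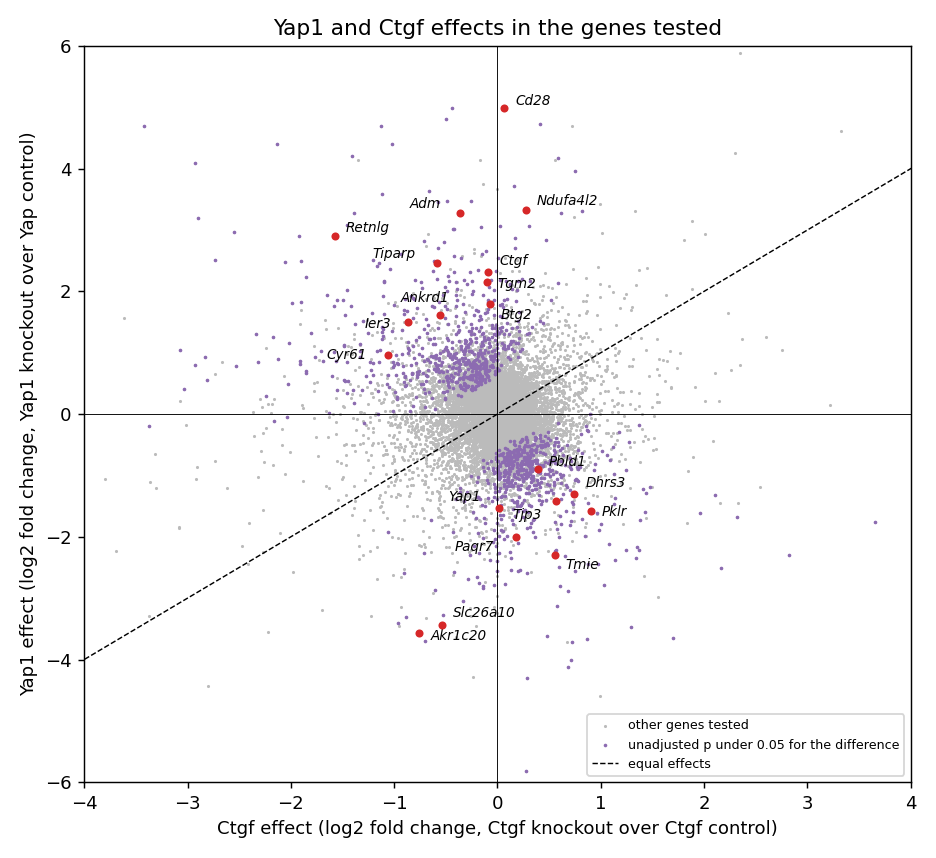
Yap1 effect (vertical axis) against Ctgf effect (horizontal axis), both as log2 fold changes of knockout over control, with a point per gene tested; purple points have an unadjusted p under 0.05 for the difference, red points are named genes, and the dashed line marks equal effects. Cd28, Ndufa4l2 and Adm sit high above the line near a Ctgf effect of 0, and 12 genes lie outside the axes.

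The smallest p-values of the difference on the higher side belonged to Adm and Cd28. Adm (GRCm38 chromosome 7, 110627661 to 110629820, plus strand) encodes the vasodilator peptide adrenomedullin. The Yap controls had 5.20 and 5.56 CPM and the Yap1 knockouts 46.7 and 57.0 CPM, while the Ctgf controls had 3.09 and 3.84 CPM and the Ctgf knockouts 2.55 and 2.83 CPM. The Yap groups were 9.65-fold apart, and the Ctgf knockouts lay just below their controls. The difference of the effects was 3.63 on the log2 scale (SE 0.33, n = 2 per group, edgeR adjusted p = 0.0618). Cd28 (chromosome 1, 60716800 to 60773359, plus strand) encodes a costimulatory receptor of T cells. It was measured at 0.525 and 0.823 CPM in the Yap controls and at 25.5 and 16.9 CPM in the Yap1 knockouts, while all 4 libraries of the Ctgf line lay between 0.711 and 0.816 CPM. Its difference was 4.92 (SE 0.52, edgeR adjusted p = 0.0952). Of 23 T and NK cell markers tested, Cd28 included, the difference was above 0 in 7 (30.4%, against 49.5% of all genes). The list median was -0.33, but 0.36 without the library labelled Ctgf knockout 2 and 0.32 without both doubted libraries. With no low-count filter Adm and Cd28 passed, with an edgeR adjusted p of 0.0333 for Adm.

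The other genes named on the higher side either owed most of the difference to the Yap line or had effects of opposite sign. Tgm2, a transglutaminase that cross-links proteins, stood at 495 and 429 CPM in the Yap controls and at 1980.4 and 2114 CPM in the Yap1 knockouts, with the Ctgf line between 472 and 580.3 CPM and its groups overlapping. The growth-arrest gene Btg2 was at 48.3 and 48.4 CPM in the Yap controls and at 182 and 153 CPM in the Yap1 knockouts, again with overlapping Ctgf groups (38.9 to 52.2 CPM). The mitochondrial protein gene Ndufa4l2, known to be induced in hypoxia, was at 1.24 and 1.07 CPM in the Yap controls and at 11.2 and 12.1 CPM in the Yap1 knockouts. Ier3, an immediate early gene that counters cell death, had opposite directions. It was at 31.6 and 32.6 CPM in the Yap controls, 72.4 and 108 CPM in the Yap1 knockouts, 66.9 and 67.8 CPM in the Ctgf controls, and 34.3 and 39.8 CPM in the Ctgf knockouts. No library of either knockout overlapped its controls for Ier3. The differences ran from 1.87 for Btg2 to 3.05 for Ndufa4l2 in these 4 genes, each with an edgeR adjusted p of 0.271. Tiparp, an ADP-ribosyltransferase induced by the aryl hydrocarbon receptor, had a difference of 3.04 (SE 0.46, edgeR adjusted p = 0.271), with Ctgf groups that overlapped.

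On the lower side the smallest p-value was that of Akr1c20 (chromosome 13, 4486849 to 4523345, minus strand), an aldo-keto reductase. It stood at 20.5 and 22.4 CPM in the Yap controls, 2.14 and 1.49 CPM in the Yap1 knockouts, 40.7 and 30.5 CPM in the Ctgf controls, and 22.0 and 20.1 CPM in the Ctgf knockouts. Both knockouts lay below their controls, 11.8-fold in the Yap line and 1.69-fold in the Ctgf line, so the difference of -2.80 (SE 0.36, edgeR adjusted p = 0.269) is one of size and not of direction. Its reads may be shared with near-identical Akr1c genes, so its counts are uncertain. Slc26a10 had the same form, with effects of -3.43 and -0.53. Pklr, the liver pyruvate kinase, had effects of opposite sign: 150.0 and 152 CPM in the Yap controls, 45 and 56.4 CPM in the Yap1 knockouts, 81.1 and 92.9 CPM in the Ctgf controls, and 127 and 199 CPM in the Ctgf knockouts. Dhrs3, a retinal reductase, did likewise at 76.1 and 107 CPM, 37.4 and 36.8 CPM, 47.5 and 45.9 CPM, and 63.5 and 92.9 CPM in the same order. In both genes the groups of each line were apart.

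Tmie, Tjp3 (a tight junction protein) and Pbld1 also lay lower in the Yap1 and higher in the Ctgf knockouts. Pbld1 had the tightest replicates, with 59.4 and 58.2 CPM in the Yap controls, 31.6 and 31.4 CPM in the Yap1 knockouts, 55.8 and 56.9 CPM in the Ctgf controls, and 75.0 and 72.9 CPM in the Ctgf knockouts. Its difference was -1.29 (SE 0.23, edgeR adjusted p = 0.284). Paqr7, a membrane progestin receptor, had a difference of -2.17 (SE 0.35, edgeR adjusted p = 0.271), with a Yap1 effect of -2.0 and a Ctgf effect of 0.17. Of the 16 genes named for the difference, 16 kept their direction in every alternative run. With DESeq2 16 of 16 had an adjusted p under 0.05, and without both doubted libraries 14 of 16 did with edgeR (Ndufa4l2 at 0.0517 and Slc26a10 at 0.0611 did not). Without Yap control 1 all 16 did so with edgeR too.

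**Figure D2:**
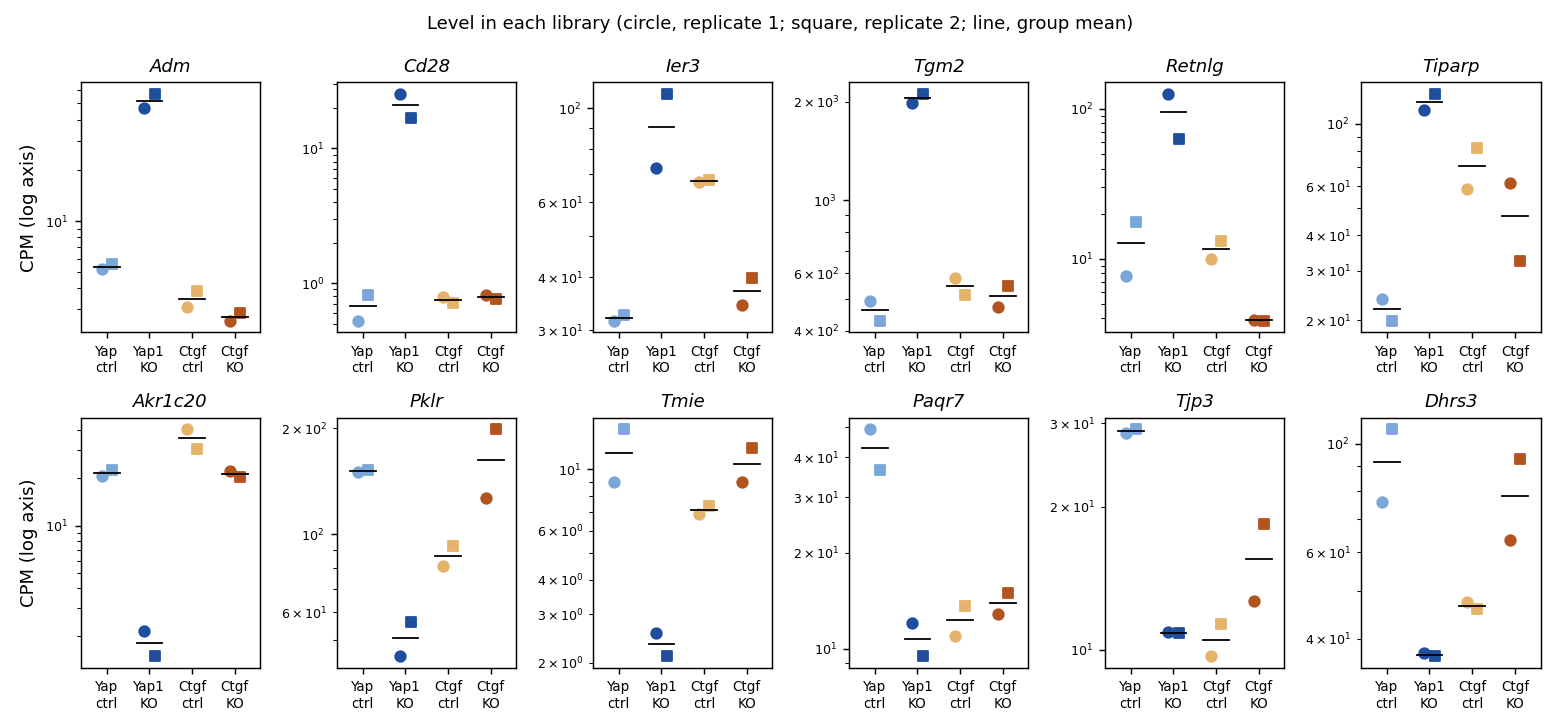
CPM on a log axis in each library for the 6 genes with the smallest p on the higher side (top) and on the lower side (bottom); circles are replicate 1, squares replicate 2 and lines group means. In the top panels the Yap1 knockouts stand above their controls while the Ctgf knockouts stand level or lower; Pklr, Tmie, Tjp3 and Dhrs3 show opposite directions in the lower panels.

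The targeted genes were read in every library. Yap1 stood at 107 and 76.1 CPM in the Yap controls and at 31.0 and 32.5 CPM in both Yap1 knockouts, and between 132 and 139.5 CPM in all libraries of the Ctgf line. The difference was -1.54 (SE 0.30, edgeR adjusted p = 0.296, and 0.0253 without both doubted libraries). Ctgf was higher, not lower, in the Yap1 knockouts: 96.8 and 50.1 CPM in the Yap controls against 406 and 324 CPM. In the Ctgf line it was at 8.02 CPM in Ctgf knockout 1 and at 49.2 CPM in the library labelled Ctgf knockout 2, on either side of the controls. The difference was 2.40 (SE 0.99, edgeR adjusted p = 0.549). It was 3.84 without both doubted libraries, a value given with no test, since 1 of them was doubted for its Ctgf level. RNA was taken from whole liver, so Ctgf from cells that kept Yap1 is in the measure, and a change in cell number cannot be told apart from a change in RNA per cell for any gene here.

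Cyr61, a CCN gene related to Ctgf, showed opposite directions with no overlap in either line. It stood at 39.2 and 21 CPM in the Yap controls, 71.1 and 45.8 CPM in the Yap1 knockouts, 80.7 and 91.1 CPM in the Ctgf controls, and 39.9 and 42.4 CPM in the Ctgf knockouts. The difference was 2.02 (SE 0.46, edgeR adjusted p = 0.425). Ankrd1, a muscle ankyrin protein, was at 3.73 and 4.49 CPM in the Yap controls and at 17.2 and 7.89 CPM in the Yap1 knockouts, while the Ctgf groups overlapped between 0.497 and 1.5 CPM (difference 2.17, SE 0.74, edgeR adjusted p = 0.519). Of the 24 tested YAP and TAZ target genes, the difference was above 0 in 17 (70.8%, against 49.5% of all genes), and 6 were higher and 2 lower at an unadjusted p under 0.05. The list median was 0.66, against -0.01 over all genes, and it was 1.08 without Yap control 1, 0.37 without Yap control 2 and 0.44 without both doubted libraries. The scaffold protein Ajuba was among those lower, at 32.4 and 26.4 CPM in the Yap controls, 11.4 and 11.1 CPM in the Yap1 knockouts, and 12.8 to 19.3 CPM in the Ctgf line (difference -0.99, SE 0.30). The ectonucleotidase Nt5e was higher, with a difference of 1.70 (SE 0.34). None of these list genes passed the edgeR test over all genes. Ctgf is in this list, so the median without both doubted libraries includes the gene for which 1 of them was doubted.

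Ankrd1 and Ajuba, which lay on opposite sides of 0, both hold letters that TEAD factors are known to bind. RefSeq promoter windows of GRCm38.p6, 250 bases before to 50 after each start, were searched on both strands for GGAATG. It occurred in 7 of the 18 YAP and TAZ targets that have a promoter in the table (38.9%) and in 14.7% of the 10812 tested genes that do. A match is a description of the letters and not a measured site. The stretches below are shown because they carry the match in a target on each side; both lie on the minus strand, at chr19:36119932-36119997 and chr14:54577812-54577877, and capitals mark the match (CATTCC is its reverse complement). The Ajuba stretch holds another CATTCC near its end, left in lower case.
Ankrd1: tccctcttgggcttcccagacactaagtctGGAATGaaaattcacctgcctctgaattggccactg
Ajuba: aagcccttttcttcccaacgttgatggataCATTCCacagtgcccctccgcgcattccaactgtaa

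Glycolysis and hypoxia response genes stood higher in the Yap1 knockouts, with medians near 0 in the Ctgf line. The difference was above 0 in 24 of 25 tested genes (96%, against 49.5% of all genes), and 11 had an unadjusted p under 0.05, all of them higher (44%, against 4.68%). The list median of the difference was 0.97, from a median Yap1 effect of 0.90 and a median Ctgf effect of 0.08. Slc2a1, the glucose transporter GLUT1, stood at 39.2 and 36.3 CPM in the Yap controls and at 146 and 165 CPM in the Yap1 knockouts, with overlapping Ctgf groups between 40.9 and 69.2 CPM (difference 1.90, SE 0.37, edgeR adjusted p = 0.296). Egln3, an oxygen-sensing prolyl hydroxylase, was at 17.1 and 15.4 CPM in the Yap controls, 45.9 and 62.8 CPM in the Yap1 knockouts, 27.6 and 45.6 CPM in the Ctgf controls, and 22.0 and 25.6 CPM in the Ctgf knockouts. Egln3 thus lay in opposite directions, with a difference of 2.36 (SE 0.40, edgeR adjusted p = 0.271). Leaving out single libraries gave list medians from 0.65 to 1.03, and leaving out both doubted ones gave 0.93 with 6 genes called higher.

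The core letters of the hypoxia response element, ACGTG, were in the promoter windows of 17 of 24 genes of this list (70.8%) and of 28.1% of the tested genes with a window, counting both strands. ACGTG is also part of the E-box CACGTG, which 2 of the 24 held (8.33%, against 11.2% of tested genes). The windows of Slc2a1 (plus strand, chr4:119108679-119108743) and Egln3 (minus strand, chr12:54204069-54204124) are shown as examples without and with opposite directions, with the match in capitals.
Slc2a1: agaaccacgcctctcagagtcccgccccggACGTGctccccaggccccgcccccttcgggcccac
Egln3: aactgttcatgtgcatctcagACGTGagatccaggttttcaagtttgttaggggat

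Cholesterol synthesis genes formed the next group. Of 25 tested, the difference was above 0 in 23 (92%, against 49.5% of all genes), with 14 at an unadjusted p under 0.05, all higher (56%, against 4.68%). The median was 1.16, which was 1.83 without Yap control 2 and 2.00 without both doubted libraries, where edgeR called 10 of the 25 higher. The median Yap1 effect was 1.32 and the median Ctgf effect -0.00. Hsd17b7, a sterol ketoreductase, was at 60.5 and 59.4 CPM in the Yap controls and at 199.6 and 340.5 CPM in the Yap1 knockouts (difference 2.42, SE 0.39), and Idi1, the isopentenyl diphosphate isomerase, had a difference of 2.77 (SE 0.50). The summed level of the list was 1584 to 2426 CPM in the Yap controls and 4071 to 5039 CPM in the Yap1 knockouts, and 2409 to 2748 CPM over the Ctgf line.

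Neutrophil markers had the highest median difference of the 41 lists. Of 22 tested, the difference was above 0 in 21 (95.5%, against 49.5% of all genes) and 15 were higher at an unadjusted p under 0.05 (68.2%, against 4.68%). The list median was 2.54, with a median Yap1 effect of 1.71 and a median Ctgf effect of -0.91. Retnlg, a resistin-like protein of neutrophils, stood at 7.69 and 17.7 CPM in the Yap controls, 126 and 63.1 CPM in the Yap1 knockouts, 9.95 and 13.2 CPM in the Ctgf controls, and 3.94 and 3.85 CPM in the Ctgf knockouts (difference 4.47, SE 0.66, edgeR adjusted p = 0.271). The granule protein gene Ngp stood at 0.0277 and 1.4 CPM, 11.7 and 11.3 CPM, 8.93 and 8.79 CPM, and 2.06 and 0.286 CPM in the same order, so its Yap controls, unlike its Yap1 knockouts, did not resemble each other. In all, 10 of the 22 markers were higher in the Yap1 and lower in the Ctgf knockouts with no overlap in either line (45.5%, against 5.01% of all genes). The summed level of the markers did not order the Ctgf groups in this way: it was 845 and 3433 CPM in the Yap controls, 5251 to 5539 CPM in the Yap1 knockouts, 1899 to 2429 CPM in the Ctgf controls and 1718 to 2778 CPM in the Ctgf knockouts. Without both doubted libraries the list median was 3.04 and 6 markers were called higher by edgeR.

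Mesothelial markers, which mark the cell layer on the liver surface, had a median difference of 1.77 and were apart in opposite directions in 6 of 12 tested genes, each higher in the Yap1 knockouts (50%, against 5.01% of all genes). Their median Yap1 effect was 0.53 and their median Ctgf effect -1.23. In the Ctgf line 11 of the 12 lay lower in the knockouts with no overlap, against 16.8% of all genes. In the Yap line 7 of the 12 lay higher in the knockouts with no overlap, against 23.6%. Without both doubted libraries the list median was 1.52. The summed level of the markers overlapped in both lines. It was 47.3 and 125 CPM in the Yap controls and 104 and 107 CPM in the Yap1 knockouts. The Ctgf controls had 206 and 130.2 CPM, and the Ctgf knockouts 162 and 109 CPM. Msln, the cell surface protein mesothelin, was at 1.69 and 2.63 CPM in the Yap controls, 4.05 and 3.53 CPM in the Yap1 knockouts, 5.10 and 3.95 CPM in the Ctgf controls, and 1.45 and 0.954 CPM in the Ctgf knockouts (difference 2.73, SE 0.54, edgeR adjusted p = 0.329). These are low levels, and the part of the liver surface in each sample was not tested. Erythroid genes also summed higher in the Yap1 knockouts, at 543 to 571 CPM against 284 to 328 CPM in the Yap controls, and lay between 204 and 269 CPM in the Ctgf line.

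Genes of fibrosis and of activated stellate cells had a difference above 0 in 24 of 30 (80.0%, against 49.5% of all genes), with 5 higher and 0 lower at an unadjusted p under 0.05 (16.7% higher, against 4.68%). Their median was 0.61, and 0.34 without Yap control 2 and 0.35 without both doubted libraries. The median Yap1 effect of the list was 0.18 and its median Ctgf effect -0.29, so both lines entered the difference. Lox, a collagen cross-linking oxidase, stood at 17.8 and 12.2 CPM in the Yap controls and at 47.9 and 52.3 CPM in the Yap1 knockouts, but at 2.10 and 1.56 CPM in both Ctgf controls and 0.887 and 1.24 CPM in the Ctgf knockouts. Its difference of 2.51 (SE 0.42, edgeR adjusted p = 0.271) thus compared fold changes around control levels that were themselves apart. The smooth muscle actin gene Acta2 showed the same gap, at 75.0 and 72.0 CPM in the Yap controls and 2.87 and 3.53 CPM in the Ctgf controls.

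Immediate early genes had a difference above 0 in 21 of 23 (91.3%, against 49.5% of all genes), with 8 at an unadjusted p under 0.05, all higher (34.8%, against 4.68%). Their median was 0.61, and 1.14 without the library labelled Ctgf knockout 2 and 1.20 without both doubted libraries. Jun, a subunit of the transcription factor AP-1, was at 146 and 139 CPM in the Yap controls, 241 and 224 CPM in the Yap1 knockouts, 191 and 254 CPM in the Ctgf controls, and 145 and 149 CPM in the Ctgf knockouts. The groups of both lines were apart, in opposite directions (difference 1.30, SE 0.30, edgeR adjusted p = 0.425). Among growth factors and receptors of regeneration, the epidermal growth factor receptor ligand Btc stood at 2.88 and 4.03 CPM in the Yap controls and at 13.6 and 26.5 CPM in both Yap1 knockouts, and between 34.5 and 42 CPM in all Ctgf libraries (difference 2.54, SE 0.48). Hmox1, the heme-degrading oxygenase, was at 135 and 113 CPM in the Yap controls, 501 and 450.3 CPM in the Yap1 knockouts, and 63.3 to 123 CPM in the Ctgf line (difference 2.34, SE 0.41, edgeR adjusted p = 0.271). The NRF2 and glutathione list that holds it had a median of -0.62, which was -0.08 without Yap control 2, -0.06 without the library labelled Ctgf knockout 2 and 0.23 without both.

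In 4 lists of hepatocyte function the median differences lay below 0 and rested on the doubted libraries. The median difference was -1.05 in 24 pericentral genes, -1.05 in 36 cytochrome P450 and xenobiotic genes, -0.67 in 23 bile acid genes and -0.60 in 27 PPAR-alpha and fatty acid oxidation genes. Without Yap control 2 these medians were 0.07, -0.42, -0.04 and -0.08, and without the library labelled Ctgf knockout 2 they were -0.66, -0.36, -0.32 and -0.57. Without both they were 0.34, 0.03, 0.25 and 0.10, so the direction turned in these 4 lists. The summed level of the pericentral list was 844 and 2374 CPM in the Yap controls and 810 to 883 CPM in the Yap1 knockouts, so only Yap control 2 stood apart. Gluconeogenesis and glycogen genes (median -0.81, and -0.53 without Yap control 2) and hepatocyte transcription factors (-0.42 and -0.44) stayed below 0. Without both doubted libraries these medians were -0.41 and -0.36. Of 15 gluconeogenesis genes, 5 were lower and 2 higher at an unadjusted p under 0.05 (46.7% in either direction, against 8.87% of all genes). Their summed level was higher in the Yap1 knockouts (4785 to 5051 CPM) than in the Yap controls (4019 to 4378 CPM). It was 3768 to 3964 CPM in the Ctgf controls and 4168 to 5436 CPM in the Ctgf knockouts. The median of the factors was -0.18 without the library labelled Ctgf knockout 2, and that of gluconeogenesis -0.44 without Yap control 1. Of the 21 factors, 5 were lower (23.8%, against 4.19% of all genes) and 0 higher at an unadjusted p under 0.05. Cebpa, a factor of hepatocyte differentiation, was at 169.7 and 189 CPM in the Yap controls, 108 and 75.5 CPM in the Yap1 knockouts, 127 and 139 CPM in the Ctgf controls, and 165 and 189 CPM in the Ctgf knockouts. Its lines were apart in opposite directions (difference -1.37, SE 0.32, edgeR adjusted p = 0.439). Biliary and progenitor markers moved from a median of -0.04 to 1.18, and acute phase proteins from 0.15 to 0.88, when Yap control 2 was left out.

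**Figure D3:**
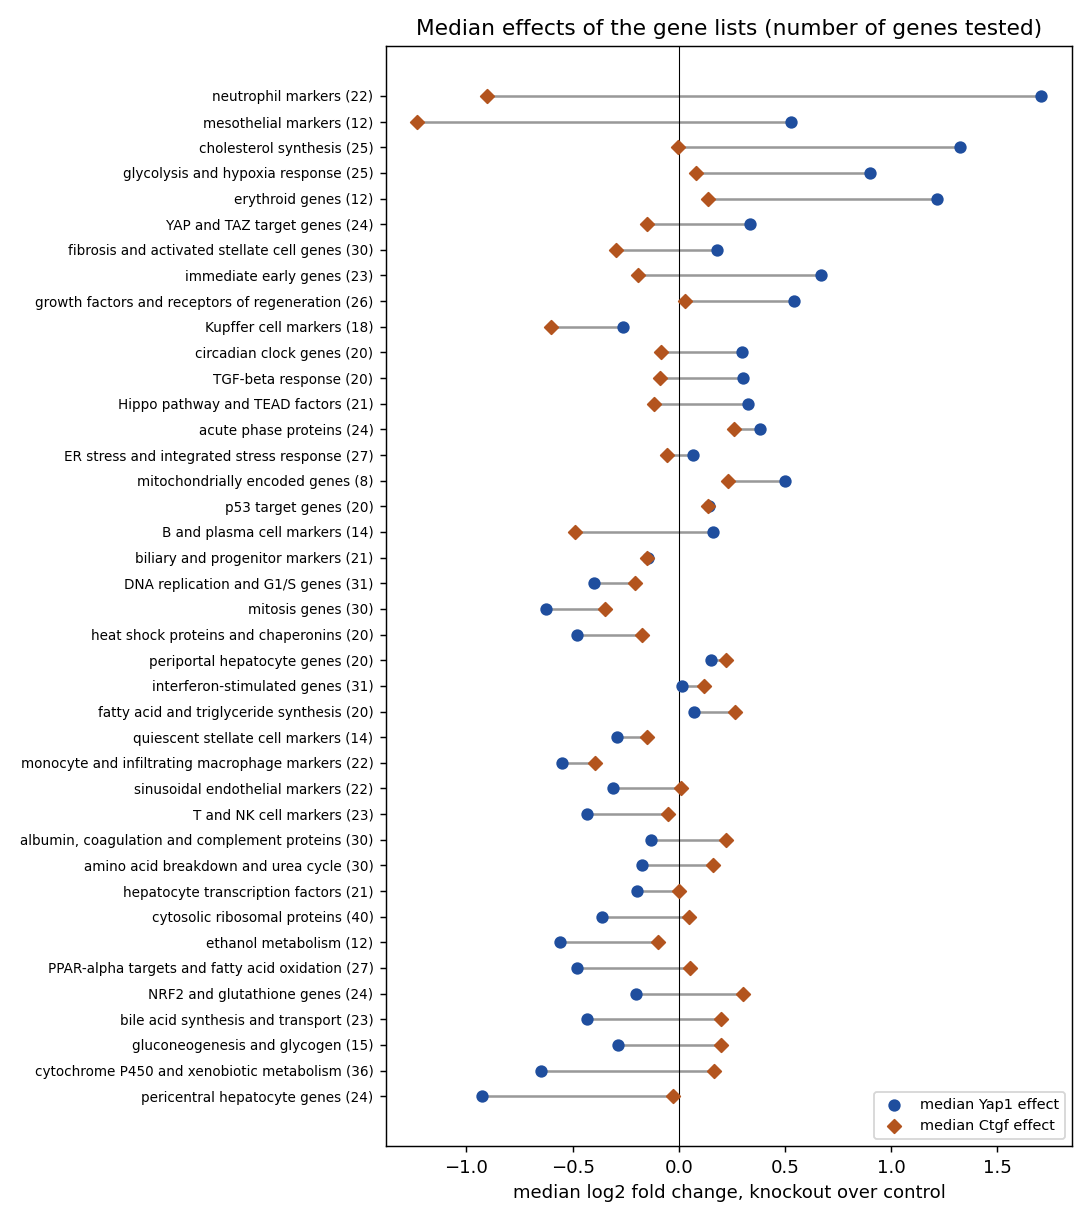
Median Yap1 effect (blue circles) and median Ctgf effect (brown diamonds) of each gene list on the log2 scale, ordered by the median difference; the number of genes tested is in brackets and the pancreas list is not drawn. Neutrophil markers top the order at medians of 1.71 and -0.91, and pericentral genes end it at -0.93 and -0.03.

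**Figure D4:**
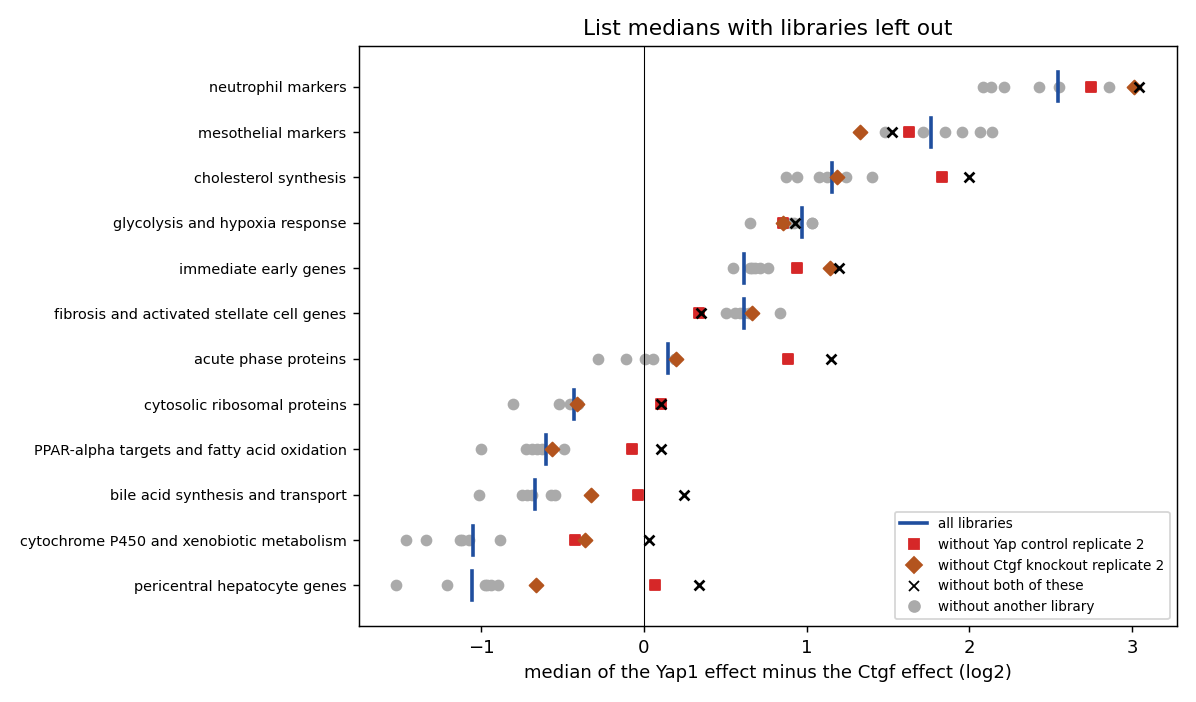
Median of the Yap1 effect minus the Ctgf effect for 12 gene lists with all libraries (blue bar) and with libraries left out (symbols). Neutrophil, cholesterol and hypoxia medians stay above 0 throughout, while the pericentral median moves from -1.05 to 0.07 without Yap control 2.

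Direction was compared by asking in which genes both knockout libraries lay on 1 side of both controls. This held in 6216 genes of the Yap line (44.4%) and 4509 of the Ctgf line (32.2%), and in both lines at once for 1961 (14%). With so few libraries per group, many genes meet this rule without any effect, so being apart is a description and not a test. Of these, 701 were higher in the Yap1 and lower in the Ctgf knockouts (5.01%) and 546 were lower and higher (3.9%). Another 365 were higher in both (2.61%) and 349 lower in both (2.49%). Opposite directions made up 63.6% of the 1961. The share changed with the Ctgf knockout that was left out. It was 43.3% of 5147 genes without the library labelled Ctgf knockout 2, and 68.8% of 5315 without Ctgf knockout 1. Without both doubted libraries it was 43.2% of 9149. The rule is easier to meet with 1 library in a group, so these shares cover other genes and are not like for like. The split between the opposite classes depended on the scaling, at 596 and 681 with upper quartile size factors. With a log2 fold change of at least 1 in both lines there were 111 genes (0.793%), of which 59 and 12 were opposite (0.421% and 0.0857%), and 14 were higher and 26 lower in both (0.1% and 0.186%).

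Of the 6 genes named as the widest among those higher in the Yap1 and lower in the Ctgf knockouts, Ngp and Retnlg are on the neutrophil list. The neutrophil surface protein Cd177 stood at 1.96 and 2.76 CPM in the Yap controls, 13.4 and 5.78 CPM in the Yap1 knockouts, 2.65 and 3.13 CPM in the Ctgf controls, and 0.958 and 1.14 CPM in the Ctgf knockouts. Sele, the endothelial adhesion molecule E-selectin, was at 3.95 and 1.11 CPM, 11.6 and 5.74 CPM, 3.32 and 3.33 CPM, and 0.532 and 1.94 CPM in the same order. Their differences were 3.48 (SE 0.64) and 3.17 (SE 1.03). Asprv1, a protease best known from skin, and Tmc3 were also named in this class, with differences of 3.59 and 3.41. In the reverse class the calcium pump Atp2b2 was at 14.2 and 4.36 CPM in the Yap controls, 1.81 and 4.33 CPM in the Yap1 knockouts, 8.89 and 7.88 CPM in the Ctgf controls, and 16.4 and 16.4 CPM in the Ctgf knockouts, so its Yap groups nearly touched. Gdf10, a ligand of the BMP family, was at 13.2 and 12.9 CPM, 5.43 and 8.48 CPM, 3.57 and 2.99 CPM, and 7.88 and 4.64 CPM (difference -1.84, SE 0.49). The kinase gene Mapk15 had a difference of -2.80. For the sorting receptor Sorcs2, the value in the library labelled Ctgf knockout 2 (14.4 CPM) set the Ctgf effect, since Ctgf knockout 1 (2.73 CPM) lay near the controls (2.49 and 1.51 CPM). The hormone gene Fgf21 stood at 48.5 CPM in Yap control 2 and at 8.19 CPM in Yap control 1, and its difference moved from -3.31 to -0.92 without both doubted libraries; the part of the pancreas transcripts in this was not tested.

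Ccnd1, the cyclin of entry into the cell cycle, was lower in both knockouts: 78.6 and 105 CPM in the Yap controls, 22.4 and 26.1 CPM in the Yap1 knockouts, 128 and 190.2 CPM in the Ctgf controls, and 81.3 and 71.6 CPM in the Ctgf knockouts. The Yap1 effect was -1.92 (SE 0.26) and the Ctgf effect -1.06 (SE 0.26), with edgeR adjusted p-values of 0.0557 and 1. Socs2, an inhibitor of growth hormone signalling, had effects of -1.15 and -1.0, and the adhesion protein gene Flrt3 effects of -1.78 and -2.40. Hsd3b3, a steroid dehydrogenase, had effects of -2.16 and -1.16, and the chemokine Ccl3 of -1.32 and -1.14. Pclaf, a replication factor, was in this class on a count of 1 in each Ctgf knockout, and no fold is given for that line.

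Ddit4, an inhibitor of mTORC1 induced by stress, was higher in both knockouts. It stood at 17.1 and 24.8 CPM in the Yap controls, 65.5 and 89.6 CPM in the Yap1 knockouts, 9.72 and 8.02 CPM in the Ctgf controls, and 21.1 and 20.3 CPM in the Ctgf knockouts, for effects of 1.89 (SE 0.26) and 1.22 (SE 0.26) with edgeR adjusted p-values of 0.0557 and 1. Lpin1, a phosphatidate phosphatase of lipid synthesis, was at 116 and 150.4 CPM, 221 and 312 CPM, 36.9 and 33.6 CPM, and 76.5 and 163 CPM in the same order, for effects of 1.00 and 1.77. Acpp, Rgs16, Gabbr2 and the xenobiotic-induced Cyp2b10 were the other genes named in this class, with Yap1 effects of 1.03 to 2.39 and Ctgf effects of 0.97 to 1.54. For Gabbr2, Yap control 1 (106 CPM) lay nearer the Yap1 knockouts (132 and 144 CPM) than Yap control 2 (28.9 CPM). For Rgs16, Ctgf knockout 1 (1.28 CPM) lay near the Ctgf controls (0.988 and 0.967 CPM), and the library labelled Ctgf knockout 2 was at 4.42 CPM. Cyp2b10 was low in the Yap controls, at 0.194 and 1.52 CPM. For none of the 12 genes named as the widest of the like classes did either effect pass the edgeR test over all genes. Akr1c20 and Ndufa4l2, named for the difference, also had like directions, and their Yap1 effects did pass. A like direction does not show that the effects were equal.

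Ifi202b stood apart in the Ctgf controls. This interferon-inducible gene, known to be expressed in some mouse strains and not in others, had 7.49 and 7.76 CPM in the Ctgf controls. It had 0 counts in both Ctgf knockouts and both Yap controls, and 0 and 1 counts in the Yap1 knockouts. Against a floor of 3 counts per library, the Ctgf controls were at least 70.4-fold higher than the Ctgf knockouts. Strain background was labelled alike in all groups, and its part in this or any other difference was not tested.

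**Figure D5:**
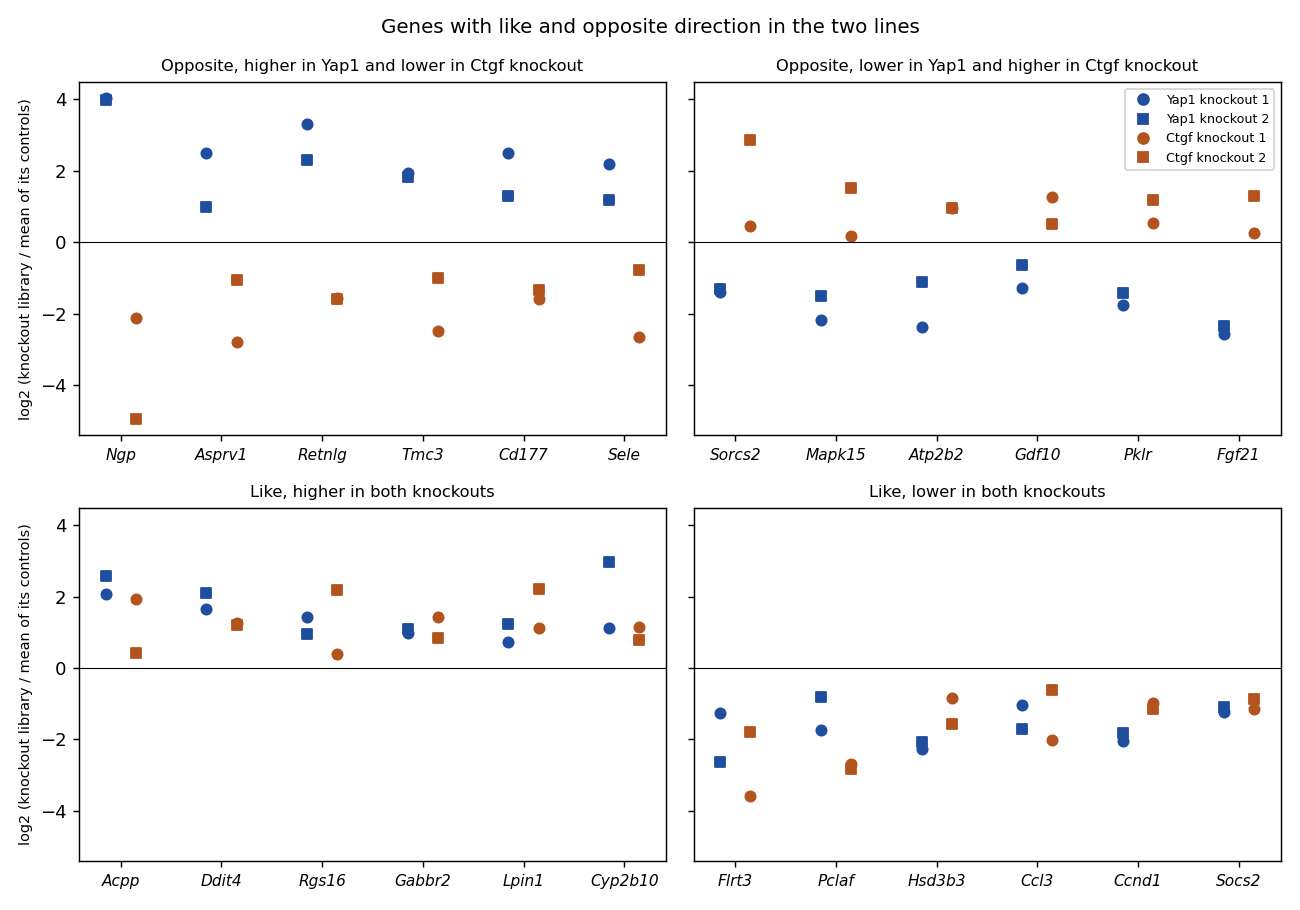
Log2 ratio of each knockout library to the mean of its own controls for the 6 genes named in each direction class; blue is the Yap line, brown the Ctgf line, circles replicate 1 and squares replicate 2. In the upper panels the colours lie on opposite sides of 0, and in the lower panels on the same side.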

How the data were processed

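Gene-level counts of reads were deposited as integers for 22155 gene symbols in 8 columns; the number of its columns not used here was 0. The submitters' processing notes name HTSeq 0.6.1, STAR 2.6.0a and bcl2fastq 2.20.0.422, with the builds mm10 and GRCm38. The sources used here do not give the annotation or strand setting, so overlapping, antisense and near-identical genes are uncertain. Per the labels' protocols, Trizol RNA from frozen liver was used, and 2 kits are named without saying which library each served.

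Counts were tested with edgeR 4.0.16 in R 4.3.3: quasi-likelihood fit of 4 group means to all 8 libraries, TMM scaling and edgeR's low-count filter, which left 13999 genes, 4 residual degrees of freedom and a biological coefficient of variation of 27.2%. Adjustment was Benjamini-Hochberg across all tested genes, with a threshold of 0.05. CPM use the TMM-scaled library size. The contrast was the Yap1 effect minus the Ctgf effect. The labels do not tie replicates to separate animals; p-values rest on the spread between libraries, which can be technical. Counting error grows at low counts; reads carry no molecular identifiers.

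Named genes were Yap1, Ctgf, Cyr61 and Ankrd1, the 8 smallest p-values of the difference per direction, the 6 widest genes of each direction class (at least 5 CPM in a group), and up to 4 members per list by smallest p. Predicted genes, immunoglobulin segments, Mup and pancreas genes were left out, and some named genes are not reported here. The members and all 41 lists were chosen with earlier results of these data known. Alternatives were RLE and upper quartile size factors, DESeq2 1.42.0, limma-voom (limma 3.58.1), other filters, a robust spread, a replicate block, and libraries left out. Scripts were tested on simulated data. Positions are from GENCODE M21 and promoters from RefSeq, both GRCm38.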

Additional observations from a re-analysis of the deposited data

How the results depend on the processing

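All 16 genes named for the difference kept their direction under the 18 alternatives run. Of 10 counts of genes, these differed from the reported ones by over 1.5 times, and the cause was not tested. DESeq2 called 85 and 57 genes higher and lower for the difference (0 and 0 with edgeR), 271 and 243 for the Yap1 effect (3 and 1), and 1 and 3 for the Ctgf effect (0 and 0, with 1 lower by limma-voom). With no low-count filter the calls were 2 higher for the difference, and 24 and 13 for the Yap1 effect. Without both doubted libraries they were 107 and 36 for the difference, and 530 and 408 for the Yap1 effect, on 2 residual degrees of freedom.

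With libraries left out in turn, calls ran from 0 to 1133 higher and 0 to 959 lower for the difference, and from 0 to 1788 higher and 0 to 1940 lower for the Yap1 effect. The upper ends came without Yap control 1; without Yap control 2 the Yap1 effect had 22 and 18 calls, and without either Yap1 knockout or either Ctgf knockout it had 0 and 0.

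A replicate block changed no call of the difference (0 and 0), and left 2 higher and 1 lower for the Yap1 effect; a replicate block within each line gave 12 and 7. The titles of the Yap controls each name a knockout by number. For Yap control 2 that number is in the column name of Yap1 knockout 2. For Yap control 1 it is in the column name of the control itself. The labelled pairing is thus unclear, and the main fit did not use it. The Ctgf titles name no pairs. Deviations of libraries with the same replicate number correlated at r = 0.0716 between Yap controls and Yap1 knockouts. Between Ctgf controls and Ctgf knockouts they correlated at 0.0678.

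The direction classes with a log2 of at least 1 in both lines (14 higher in both, 26 lower in both, 59 higher in Yap1 and lower in Ctgf knockouts, and 12 the reverse) became 36, 61, 94 and 31 with no filter. They became 9, 11, 37 and 6 at 1 CPM or more in 2 libraries, and 97, 128, 140 and 20 without both doubted libraries. With no fold minimum they were 365, 349, 701 and 546. Leaving out libraries in turn gave 24 to 70, 41 to 105, 65 to 137 and 19 to 83. Where libraries were left out the rule is easier to meet, so those counts are not like for like.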
